A study of Mus musculus with 4 samples.

Results

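The mitochondrial ribosomal protein genes are nuclear genes whose proteins are made in the cytosol, imported into mitochondria and built into the mitochondrial ribosome. They were taken here by symbol, as every gene named alone by a probe set whose symbol is Mrpl (large subunit) or Mrps (small subunit) followed by a number. This gave 76 of the 18193 genes that a probe set names alone, 47 Mrpl and 29 Mrps genes, read by 156 probe sets and lying on 17 chromosomes. A probe set is a group of short probes for 1 transcript, and 34 of the genes have 1 and 42 have at least 2, with up to 8 for a gene. Each gene is represented by its brightest probe set and the others are given beside it. Mrpl30 and Mrpl53 are named only together with another gene and are not members.

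RNA came from E14Tg2A.4 cells, a line of mouse embryonic stem cells, in both groups. In 1 group of 2 arrays the ligand BMP-2, bone morphogenetic protein 2, had been added at 25 ng/ml, with an exposure of 1 h. The other group of 2 arrays holds cells kept without it for as long. The question was which transcripts differ after 1 h of the ligand. The labels number the arrays of each group 1 and 2 and do not name them as separate cultures. A p-value here therefore covers the spread among the samples as given, and that spread may be technical only. The values are Affymetrix MAS5 signals, a linear brightness per probe set, and with only 4 arrays the precision is limited.

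The mitochondrial genome encodes core subunits of the respiratory chain and of ATP synthase, together with the RNAs of its own ribosome, and every protein of that ribosome is encoded in the nucleus. Some of these proteins descend from bacterial ribosomal proteins, while others, called mitochondria-specific, have no bacterial counterpart at their place in the ribosome and were added during the evolution of mitochondria. Pluripotent stem cells rely strongly on glycolysis and still need mitochondrial translation, and BMP ligands act first on their transcription through phosphorylated SMAD proteins.

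The 2%-trimmed mean of the signals was 500 on each array, whereas the array medians were 81.8 and 94.9 with BMP-2 and 82.5 and 94.6 untreated, in each group higher on replicate 2. Id1, Id2 and Id3, direct BMP targets that check the treatment, rose by 1.65, 1.76 and 1.73 on the log2 scale, past an adjusted p of 0.05 in limma. All 8 embryonic stem cell markers were bright, from Esrrb at 3286 to Dppa5a at 22527. Of 8 fibroblast and feeder markers, Col1a1, Col3a1, Postn, Lum and Dcn were below the signal limit of 53.0, Col1a2 and Thy1 lay between 161 and 239, and Vim, which stem cells also express, between 7065 and 7978. In such bulk samples, fewer cells of a type and less RNA per cell cannot be told apart. The array of untreated replicate 2 stood apart in its 18S rRNA control probe sets, with a mean signal of 3949 against 716 to 889 on the others.

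Mitochondrial ribosomal protein transcripts gave strong signals in untreated cells. All 76 genes passed the limit for testing by their brightest probe set, and 71 of them lay in the brightest quintile of the 27022 tested probe sets, those above the 80th percentile of signal. The means of the untreated arrays ran from 893 to 9024 with a median of 2797, against a median of 280.0 over all tested probe sets. Both comparisons set the brightest probe set of each member against probe sets not chosen by signal, which raises the members. Of the 69 other tested probe sets of members, 19 lay in that quintile. The SD of the members' untreated arrays was a median of 5.01% of the mean, from 0.111% to 19.0%, and was not set beside that of other probe sets. These arrays differed mostly in 1 direction, with 58 members lower on untreated replicate 2 and a median difference of -0.080 log2. Signals of different probe sets are not on 1 scale of abundance, so the order of the genes describes the array and not which protein is made most.

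The 47 Mrpl genes had an untreated median of 2885. Mrpl15, a homologue of a bacterial large subunit protein, gave the highest signal with 9560.3 and 8488 on the untreated arrays (mean 9024 ± 759, SD, n = 2). Mrpl51, specific to mitochondria, followed with 8840.0 and 7980.4. Mrpl17, a homologue of a bacterial protein near the exit of the peptide tunnel, gave 7919.5 and 6997. Mrpl15 and Mrpl51 overlap, Mrpl51 and Mrpl17 are only just apart, and each gave more on replicate 1 than on replicate 2. At the other end stood Mrpl14 with 878 and 909, Mrpl1, a protein of the mobile stalk at the side of the subunit, with 967 and 965, and Mrpl38, a mitochondria-specific protein of the central protuberance, with 856 and 1104. Mrpl38 spanned the values of both other genes, which did not overlap each other.

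The 29 Mrps genes had an untreated median of 2329. Mrps14 (6112 and 5326), a homologue of a bacterial protein of the subunit head, and Mrps18b (5535 and 5670.1) headed them, with values that overlap. Mrps34, a mitochondria-specific protein, came next at 5182 and 4471. The lowest were Mrps36 at 1456 and 1276, Mrps27, an RNA-binding protein of the pentatricopeptide repeat family, at 1563 and 1606 and Mrps23 at 1650.5 and 1608. Mrps36 kept its ribosomal name, although its product is known as a part of the 2-oxoglutarate dehydrogenase complex, and it lay below both of the others on both arrays.

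A name does not always give the place of the protein. The products of Mrps18a and Mrps30 sit in the large subunit, and their genes gave 2490.1 and 2143 and 2362 and 2197 untreated. Mrps18a, Mrps18b and Mrps18c are paralogs related to 1 bacterial protein, whose place Mrps18c takes, and Mrps18c gave 3917 and 3882. When genes were placed by the structure of the ribosome instead of by name, with Mrps36 left out, the median was 2859 over 49 large subunit genes and 2437 over 26 small subunit genes. Grouped by descent, with Mrps18c counted as a bacterial homologue, Mrps18b, which sits elsewhere in the small subunit, as mitochondria-specific and Mrps18a and Mrps36 left out, the 45 genes with a bacterial homologue had a median of 3317 and the 29 mitochondria-specific genes one of 2329. With all probe sets of a gene averaged on the log scale instead, also those below the signal limit, the median was 1338 for the Mrpl and 1584 for the Mrps genes by name. This is the reverse order of the medians by brightest probe set, and the part of the dim probe sets in it was not tested.

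**Figure D1:**
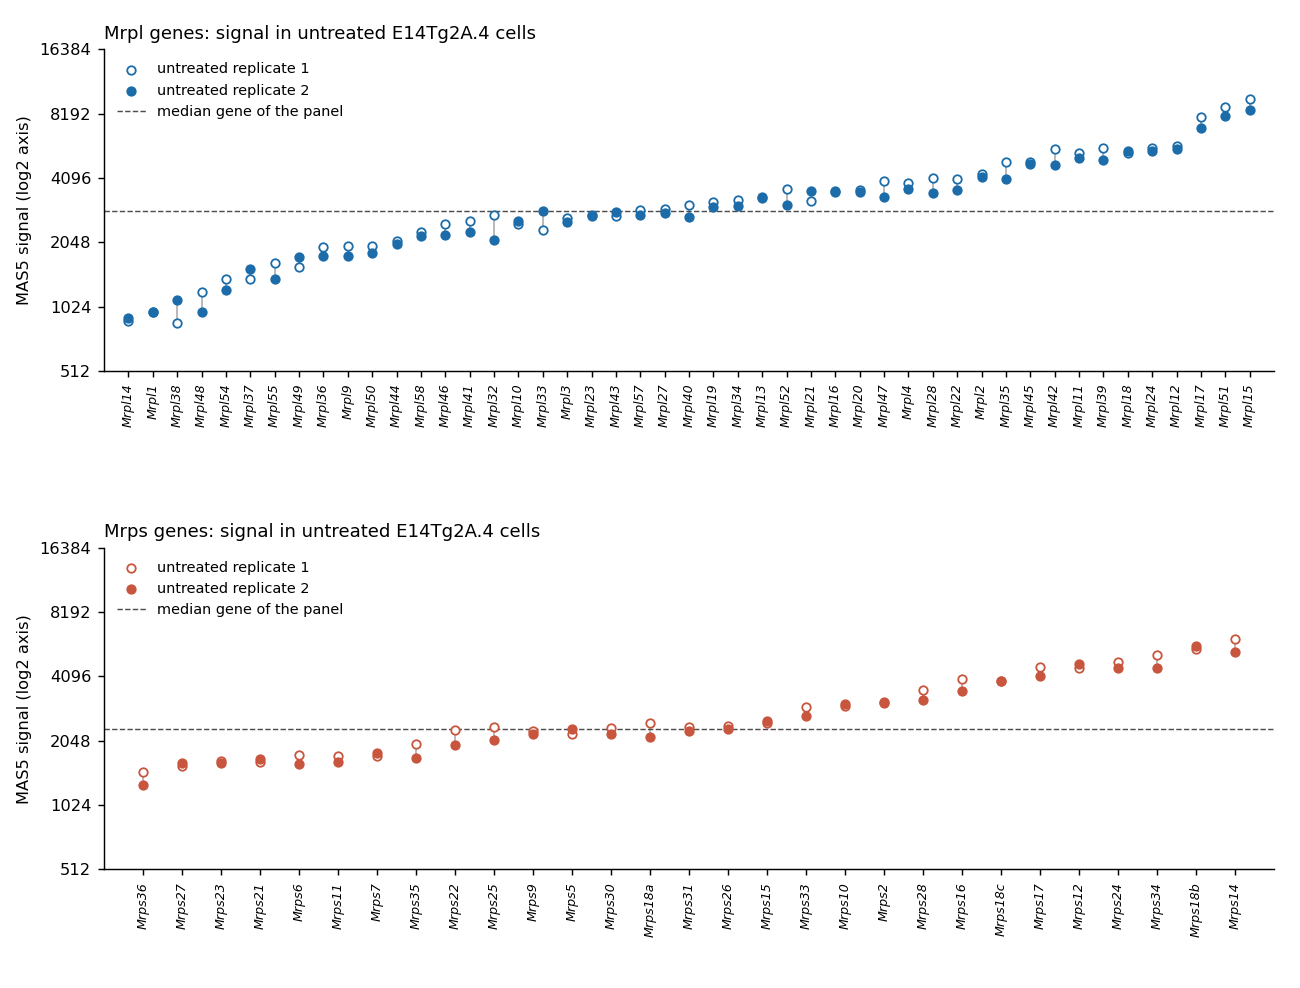
MAS5 signal (log2 axis) of each Mrpl gene (upper panel) and Mrps gene (lower panel) on the untreated arrays, ordered by mean, with open circles for replicate 1, filled circles for replicate 2 and a dashed line at the median gene. The Mrpl genes run from Mrpl14 at a mean of 893 to Mrpl15 at 9024, the Mrps genes from Mrps36 at 1366 to Mrps14 at 5719.

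After 1 h of BMP-2, no mitochondrial ribosomal protein gene passed the test. With limma and Benjamini-Hochberg adjustment over all 27022 tested probe sets, 0 of the 76 genes had an adjusted p under 0.05, against 0.0185% of all tested probe sets, and 1 had an unadjusted p under 0.05, being lower, against 3.07% in either direction and 1.15% lower. The differences, treated minus untreated, ran from -0.25 to 0.14 on the log2 scale with a median of -0.035, against 0.008 over all tested probe sets and -0.008 over their brightest quintile. They were below 0 for 55 genes and above 0 for 21, where 47.8% of all tested probe sets and 54.5% of the brightest quintile were below 0. With each array centred on the median of the tested probe sets, a setting chosen after seeing the data, the numbers were 64 and 12. In that setting 56.4% of all tested probe sets and 71.1% of the brightest quintile were below 0.

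The arrays limited how large a difference could have been missed. The standard error of a gene was 0.072 to 0.16 log2, with a median of 0.093. By the brightest probe set, the 95% interval lay within 0.5 log2 of 0 for 75 of the 76 genes, a 1.41-fold difference either way. For Mrpl48 it reached -0.60. The interval held 0 for all genes but Mrps15. Over all 145 tested probe sets of members the intervals reached from -1.33 to 2.34, so these limits hold for 1 probe set per gene.

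The direction of the median rested on single arrays. Without BMP-2 replicate 2 the median was 0.0076 with 35 genes lower, and without untreated replicate 1 it was 0.013 with 33 lower. Without BMP-2 replicate 1 it was -0.069 with 62 lower, and without untreated replicate 2 it was -0.076 with 63 lower. In the same order, the brightest quintile had medians of 0.014, 0.014, -0.027 and -0.029, with 43.3%, 44.8%, 61.2% and 63.2% lower. Of all tested probe sets, 50.8%, 54.1%, 43.5% and 42.7% were lower. Both treated arrays lay below both untreated arrays for 15 genes, against 12.5% of all tested probe sets and 14.1% of the brightest quintile, and above them for 2 genes (Mrpl2 and Mrpl16), against 15.9% of all. Treated minus untreated was negative in both equal-numbered pairs for 32 genes, against 22.9% of all tested probe sets and 26.7% of the brightest quintile.

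**Figure D2:**
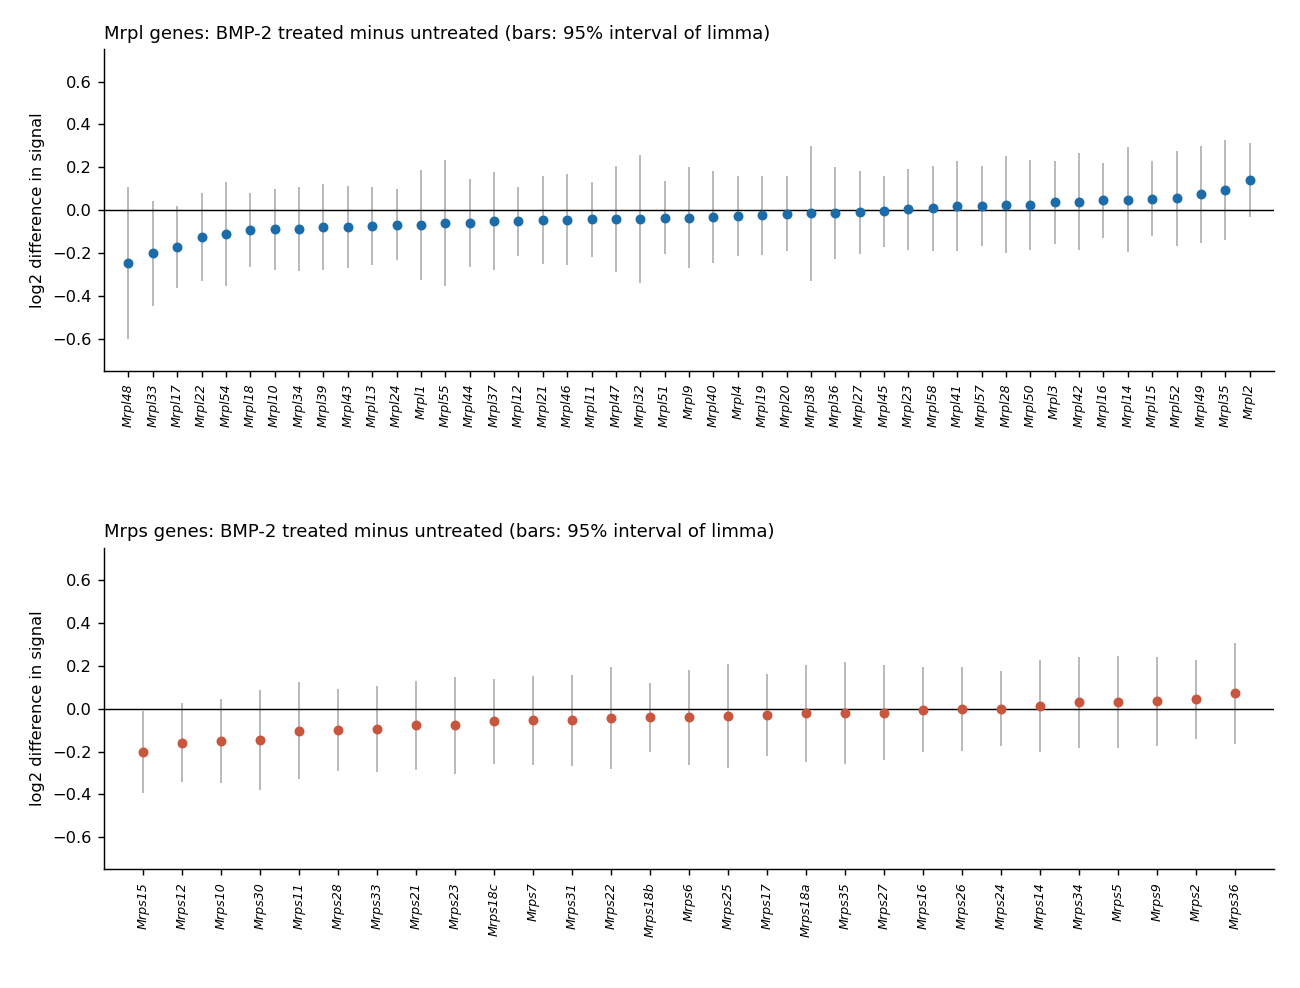
BMP-2 treated minus untreated signal (log2) of each Mrpl gene (upper panel) and Mrps gene (lower panel), ordered by difference, with bars for the 95% interval of limma. The points run from Mrpl48 at -0.25 to Mrpl2 at 0.14, and only the interval of Mrps15 leaves out 0.

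Among the Mrpl genes, 32 differences were below 0 and 15 above. Mrpl48 had the lowest, with signals of 1057 and 779.8 with BMP-2 and 1196 and 968 untreated, a difference of -0.25 ± 0.16 (SE, n = 2 arrays per group; adjusted p 1.00 in limma). The groups overlap, since the first treated array exceeded the second untreated one, and the difference ranged from -0.46 to -0.026 when 1 array was left out. Mrpl33, a small homologue of a bacterial protein near the tRNA exit site, gave 2204 and 2295 with BMP-2 and 2327 and 2872 untreated (-0.20 ± 0.11 log2). Mrpl17 gave 6921 and 6307 against 7919.5 and 6997 (-0.17 ± 0.085 log2). For both genes the treated arrays lay below the untreated ones, for Mrpl17 by less than the gap between the arrays of either group. Mrpl22, whose bacterial homologue lines the peptide tunnel, gave 3699 and 3317 against 4034 and 3616, which overlap (-0.13 ± 0.092).

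On the other side, Mrpl2, whose bacterial homologue lies by the peptidyl transferase centre, gave 4731 and 4539.8 with BMP-2 and 4296 and 4119.7 untreated, a difference of 0.14 ± 0.077 log2 with no overlap (adjusted p 1.00 in limma). Mrpl35 gave 5074 and 4415 against 4851 and 4056 (0.093 ± 0.10). Mrpl49 gave 1807 and 1673 against 1567 and 1741 (0.074 ± 0.10). In both genes the arrays of the groups interleave. For Mrpl15, the brightest member, the difference was 0.054 ± 0.078.

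Among the Mrps genes, 23 differences were below 0 and 6 above. Mrps15, whose bacterial homologue binds the rRNA early in assembly, had the smallest p of all members, with 2206 and 2156 against 2489 and 2528 and no overlap. Its difference was -0.20 ± 0.086 log2, with an unadjusted p of 0.0405 and an adjusted p of 1.00 in limma. Its other tested probe set, nearly as bright, gave 2155 and 2097 against 2629 and 2012, a difference of -0.11 ± 0.12 in which untreated replicate 2 lay below both treated arrays.

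Mrps12, whose bacterial homologue takes part in accurate decoding, gave 4329.8 and 3899 against 4504 and 4667 (-0.16 ± 0.083). Mrps10 gave 2846 and 2579.8 against 2982 and 3035 (-0.15 ± 0.088). Neither overlaps between the groups. Mrps30 gave 1897 and 2232 against 2362 and 2197, with the second treated array above the second untreated one (-0.15 ± 0.10). The highest Mrps differences were those of Mrps36 (0.071 ± 0.11), Mrps2 (0.043 ± 0.082), Mrps9 (0.035 ± 0.093) and Mrps5 (0.031 ± 0.10), each under its standard error. The direction of Mrps5 flipped with the arrays centred on the median of the tested probe sets. The paralogs Mrps18a, Mrps18b and Mrps18c differed by -0.022, -0.041 and -0.060 log2, with standard errors of 0.10, 0.072 and 0.089.

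Both lines of descent gave mostly negative differences. Of the 45 genes with a bacterial homologue 33 were lower and 12 higher, with a median of -0.042, and of the 29 mitochondria-specific genes 21 were lower and 8 higher, with a median of -0.033. None of either group had an adjusted p under 0.05 in limma, and 1 of the former, Mrps15, and 0 of the latter had an unadjusted p under 0.05. Over the 75 tested of 77 oxidative phosphorylation subunit genes, which include the partners of the proteins that this ribosome makes, the median was -0.025 with 52 lower, and over the 40 tested of 41 cytosolic ribosomal protein genes it was -0.009 with 21 lower. No test of the difference between gene groups was made.

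Other probe sets of the same genes are dimmer and spread more widely. Of the 156, 145 passed the signal limit, 69 of them beside the brightest one of a gene. The treated minus untreated differences had an SD of 0.070 log2 over the 76 brightest probe sets and of 0.27 over the 69 others. Over the 145, 5 had an unadjusted p under 0.05 in limma, against 3.07% of all tested probe sets, and 0 an adjusted p under 0.05. In 39 genes with several tested probe sets, all of them shared the direction in 12.

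The widest gaps were in Mrpl17, Mrpl48, Mrpl33 and Mrpl38. A dim probe set of Mrpl17 gave 98.5 and 111 with BMP-2 and 31.1 and 43.5 untreated, a difference of 1.50 ± 0.37 log2 (adjusted p 1.00 in limma), where the brightest gave -0.17 and the third -0.37 ± 0.33. In Mrpl48 a second probe set gave 576 and 627 against 884 and 915, a difference of -0.58 ± 0.12 with an unadjusted p of 6.34e-04 and an adjusted p of 0.536 in limma, while a dimmer one gave 0.34 ± 0.38. The second probe set of Mrpl48 is thus lower without overlap, the brightest is lower with overlap, and the dimmest is higher. In Mrpl33 the dim probe set gave 67.4 and 78.4 against 50.9 and 45.0 (0.60 ± 0.37), opposite to the brightest. In Mrpl38 the dimmest of 3 gave 173 and 157 against 103 and 116 (0.59 ± 0.23), while the others gave -0.015 and -0.015. When the tested probe sets of a gene were averaged instead, Mrpl17 was at 0.32, Mrpl33 at 0.20 and Mrps2 at -0.031, each with the sign turned. What the dim probe sets read, another transcript form or background, was not tested.

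**Figure D3:**
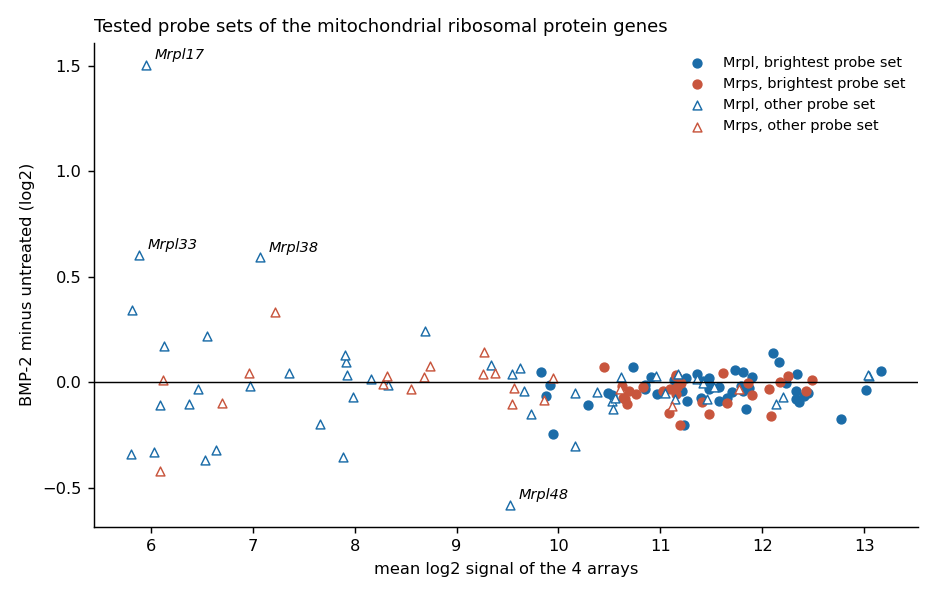
BMP-2 treated minus untreated signal (log2) of the 145 tested probe sets against their mean log2 signal over the 4 arrays, with filled circles for the brightest probe set of a gene and triangles for the others. The circles lie between -0.25 and 0.14, and the triangles, most of them dimmer, spread from -0.58 (Mrpl48) to 1.50 (Mrpl17).

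The larger pattern in these genes was between arrays of the same group. On replicate 2 of each group the members were mostly lower than on replicate 1: the difference, replicate 2 minus replicate 1, was below 0 for 61 genes, against 39.8% of all tested probe sets, and above 0 for 15, with a median of -0.089 log2. No gene passed the threshold, since limma with Benjamini-Hochberg adjustment called 0 of 76 and 0% of all tested probe sets, and 16 members (15 lower, 1 higher) had an unadjusted p under 0.05, against 10.8% of all tested probe sets (3.2% lower, 7.55% higher) and, for lower ones, 9.81% of the brightest quintile. Both replicate 2 arrays lay below both replicate 1 arrays for 42 members, against 15.6% of all tested probe sets and 36.5% of their brightest quintile. They lay above for 2 members, Mrpl14 and Mrpl38, against 28.2% of all.

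This contrast depends on how the arrays are scaled. Quantile normalization gave 51 members lower and 25 higher, where 52.1% of all tested probe sets and 54.8% of the brightest quintile were lower. Centring on the brightest quintile, added after seeing the data, gave 52 and 24, where these shares were 32.9% and 54.2%. Centring on the median of the tested probe sets, also added, gave 73 and 3, where they were 56.4% and 87.3%. Centring each array on the median of all its probe sets shifted every difference by the same amount. It took the median of all tested probe sets from 0.052 to -0.15 and gave 75 members lower and 1 higher (Mrpl38). Lower were also 72.2% of all tested probe sets and 96.6% of the brightest quintile. Lower without overlap were 73 members and 86.7% of that quintile. In this setting 43 members were past an adjusted p of 0.05 in limma, all lower, against 10.4% of all tested probe sets. Calls within the brightest quintile were not counted.

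The difference between replicates ran with signal over the whole array. From the dimmest to the brightest quintile of tested probe sets, its median was 0.22, 0.16, 0.086, 0.014 and -0.041 log2, and 66.6% of the brightest quintile were below 0. The members' median of -0.089 lay beyond that of the quintile in which nearly all of them lie. The oxidative phosphorylation genes were close to them, with a median of -0.076, 62 of 75 lower and 42 without overlap. The cytosolic ribosomal protein genes were not, with a median of -0.001, 21 of 40 lower, and medians of 0.059 between the untreated and -0.040 between the BMP-2 arrays. These groups were read on the same 4 arrays, no test between them was made, and the part of the array-wide trend in the members' difference was not tested.

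The pattern was present in each group by itself. The median was -0.096 between the BMP-2 arrays, with 61 members lower, and -0.080 between the untreated arrays, with 58 lower, and 48 members were lower in both, against 21.7% of all tested probe sets and 45% of the brightest quintile. Of the others, 13 were lower in the BMP-2 arrays alone, 10 in the untreated arrays alone and 5 (Mrpl14, Mrpl33, Mrpl38, Mrps18b and Mrps21) were higher in both, of which Mrpl38 alone stayed above 0 in the mean of both groups when arrays were centred on their median. The 18S signals were 889 and 806 on the BMP-2 arrays and 716 and 3949 on the untreated ones, and the part of 18S in the untreated difference was not tested. Across the members, which share arrays and scaling, the BMP-2 and untreated differences had a Pearson r of 0.49 (0.64 over the Mrpl and 0.056 over the Mrps genes), against 0.30 over the brightest quintile and 0.15 over all tested probe sets.

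**Figure D4:**
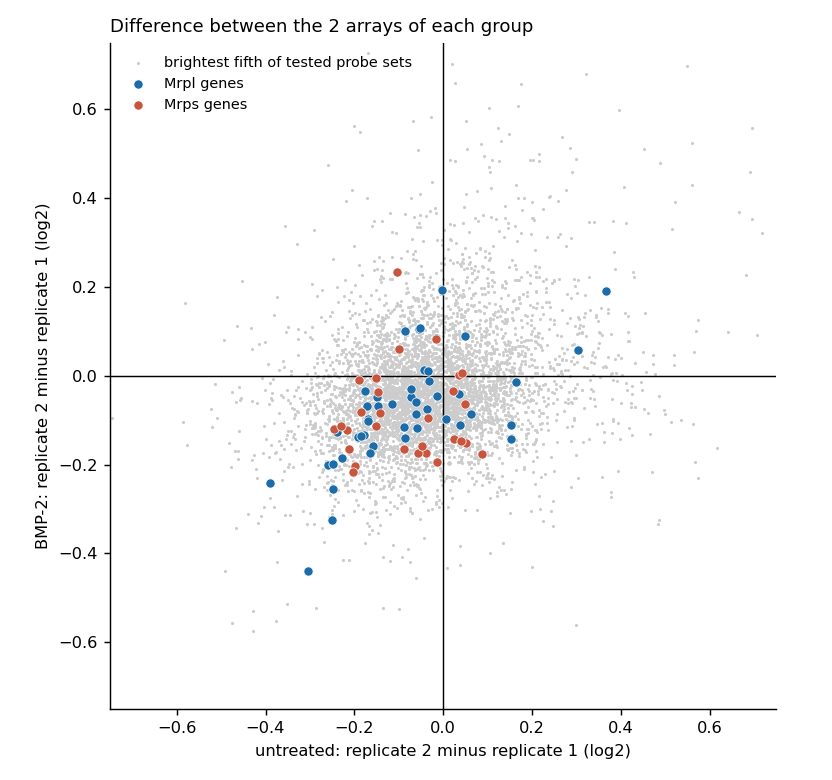
Difference between the arrays of a group, replicate 2 minus replicate 1 (log2), in untreated cells (horizontal) and with BMP-2 (vertical), for Mrpl genes (blue), Mrps genes (red) and the brightest quintile of tested probe sets (grey, of which 23 lie outside the axes). Below 0 on both axes lie 48 of the 76 members, at the scaling as deposited.

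The members with the smallest p in this contrast were taken separately from the Mrpl and the Mrps genes. An unadjusted p under 0.05 in limma was found for 11 of 47 Mrpl and 5 of 29 Mrps genes, against 10.8% of all tested probe sets. Mrpl32, a homologue of a bacterial protein whose maturation by a protease of the inner membrane is known to precede ribosome assembly, gave 2543 and 2758 on replicate 1 (BMP-2, untreated) and 2153 and 2103 on replicate 2, a difference of -0.32 ± 0.074 log2 (unadjusted p 0.00287, adjusted p 0.394 in limma). Mrpl47, also of bacterial descent, gave 3857 and 3961 against 3231 and 3334 (-0.25 ± 0.062). The mitochondria-specific Mrpl42 gave 5639.7 and 5579.5 against 4912 and 4695 (-0.22 ± 0.056). In these 3 genes each replicate 2 array lay below both replicate 1 arrays. With the tested probe sets of a gene averaged, Mrpl47 was at -0.013. Mrpl55 stood at -0.29 ± 0.082, and Mrpl48, lowest of all, at -0.37 ± 0.13.

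In the small subunit Mrps14 gave 6177 and 6112 on replicate 1 and 5363 and 5326 on replicate 2 (-0.20 ± 0.053; adjusted p 0.4 in limma). Its second tested probe set gave 797 and 722 against 524 and 476, a difference of -0.60. Both probe sets separate the replicates in the same direction. Mrps34 differed by -0.19 ± 0.056, Mrps25 by -0.21 ± 0.070 and Mrps22, another mitochondria-specific protein, by -0.18 ± 0.075. Averaged probe sets gave -0.012 for Mrps25, -0.40 for Mrps14 and 0.12 for Mrpl38. In the other direction stood Mrpl38, with 900.1 and 856 on replicate 1 and 1028 and 1104 on replicate 2 (0.28 ± 0.094; adjusted p 0.411 in limma), and Mrpl33 at 0.18 ± 0.11, which turns negative when arrays are centred on their median. Mrpl1 (0.095), Mrpl37 (0.075), Mrps30 (0.065), Mrps2 (0.033), Mrps21 (0.024) and Mrps18b (0.019) were above 0 as deposited and below 0 under that centring.

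By descent, 19 of the 29 mitochondria-specific genes were lower on replicate 2 without overlap, and 21 of the 45 genes with a bacterial homologue, against 15.6% of all tested probe sets and 36.5% of their brightest quintile. The 2 groups were not tested against each other. Their medians were -0.11 and -0.060 log2. Of the other probe sets in the brightest quintile, 16 of 19 were lower on replicate 2 with a median of -0.057, and of the 50 dimmer ones 20 were lower with a median of 0.020. The widest gaps between probe sets of a gene in this contrast were in Mrpl3, where the brightest differed by 0.025 and a dim one by 0.99, and in Mrpl58, the peptide-releasing member of the ribosome, with -0.073 and 0.75.

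**Figure D5:**
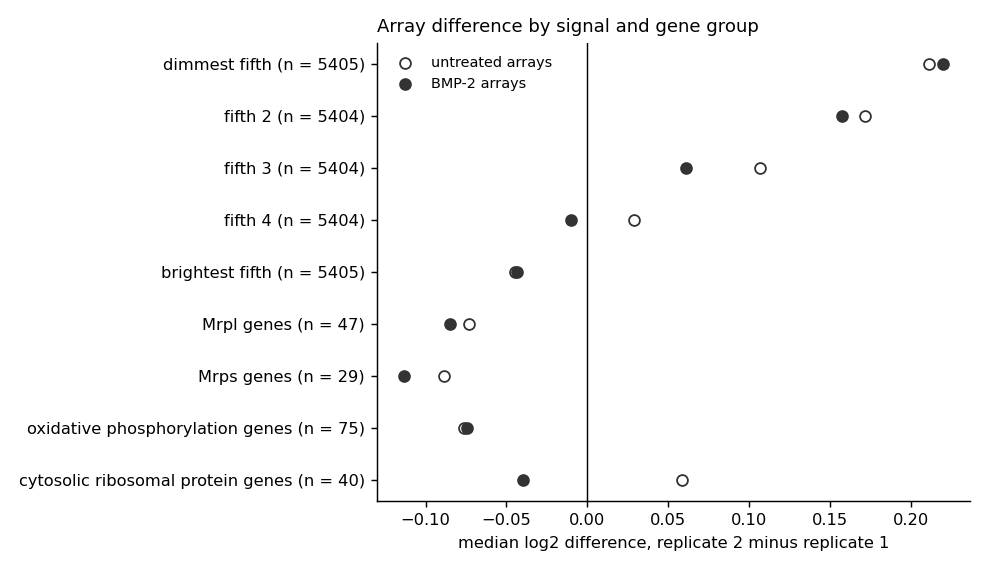
Median log2 difference, replicate 2 minus replicate 1, within the untreated arrays (open circles) and the BMP-2 arrays (filled circles), for the quintiles of tested probe sets by signal, the Mrpl and Mrps genes, and the 2 gene groups set beside them. Quintiles go from positive to negative with signal, and the Mrpl and Mrps genes lie below 0 in both groups at the scaling as deposited.

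Many genes of mitochondrial proteins carry sites for NRF1 and for the ETS factor GABP, known regulators of nuclear genes for mitochondria, in their promoters. RefSeq windows of 250 bases before the transcription start (build GRCm38.p6) were matched by Entrez identifier for 67 of the 76 members, in 73 windows, and searched on both strands. The ETS core CCGGAAG stood in 23.3% of the members' windows (17 genes), against 8.98% of the windows of all protein-coding genes. The NRF1 motif, 10 bases long and nearly the same on both strands, stood in 8.22% (6 genes), against 1.11%. The E-box CACGTG stood in 9.59% (7 windows of 5 genes), against 6.63%. Counted by gene, the E-box stood in 5 of 67 members and 1331 of 17492 protein-coding genes, which are nearly equal shares. The ETS core stood in 17 and 1779 of these genes, and the NRF1 motif in 6 and 221. The median GC content was 58.4% in the members' windows and 55.6% in all, and no test was made. A match is a run of letters and not a measured site.

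Mrpl17 and Mrpl22 are the members with both motifs. By their brightest probe sets both are among the Mrpl genes with the lowest differences after BMP-2, while Mrpl17 turned to 0.32 with averaged probe sets. Mrpl32, with the smallest p between replicates, holds the NRF1 motif on both strands in overlapping places, and Mrps18b is an Mrps gene with the motif whose differences were near 0 in both contrasts as deposited. Their windows follow, 5′ to 3′ on the strand of the gene up to the base before the start, with motif matches in capitals: the longer run is the NRF1 motif, or its reverse complement, and the shorter one the ETS core. They lie at chr7:105811088-105811337 on the minus strand (Mrpl17), chr11:58171414-58171663 on the plus strand (Mrpl22), chr13:14613038-14613241 on the minus strand (Mrpl32, 204 bases, ended at the start of the gene behind it) and chr17:35916441-35916690 on the minus strand (Mrps18b).
Mrpl17: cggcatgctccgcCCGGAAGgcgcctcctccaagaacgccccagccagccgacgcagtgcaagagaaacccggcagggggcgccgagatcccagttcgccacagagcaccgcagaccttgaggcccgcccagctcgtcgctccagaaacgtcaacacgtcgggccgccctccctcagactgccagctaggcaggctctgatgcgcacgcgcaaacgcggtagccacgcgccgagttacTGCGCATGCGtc
Mrpl22: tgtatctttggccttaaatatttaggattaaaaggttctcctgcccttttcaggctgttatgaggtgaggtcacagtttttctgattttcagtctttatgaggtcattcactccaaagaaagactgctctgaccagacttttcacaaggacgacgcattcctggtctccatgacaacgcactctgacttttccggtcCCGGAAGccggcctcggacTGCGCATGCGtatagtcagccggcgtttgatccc
Mrpl32: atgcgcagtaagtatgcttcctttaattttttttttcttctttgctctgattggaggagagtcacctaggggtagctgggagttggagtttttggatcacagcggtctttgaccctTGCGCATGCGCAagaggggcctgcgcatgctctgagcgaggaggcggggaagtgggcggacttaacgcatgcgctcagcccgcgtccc
Mrps18b: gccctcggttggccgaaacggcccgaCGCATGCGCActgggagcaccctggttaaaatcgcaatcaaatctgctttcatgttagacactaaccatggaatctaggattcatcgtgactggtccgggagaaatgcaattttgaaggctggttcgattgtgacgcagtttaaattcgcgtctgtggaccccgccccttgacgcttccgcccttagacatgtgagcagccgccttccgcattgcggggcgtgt

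In Mrpl17 the NRF1 motif begins 12 bases before the start and the ETS core 237. In Mrpl22 the pair lies closer together, at 34 and 53 bases. The matches of Mrpl32 begin at 88 and 86 bases, and that of Mrps18b, read on the other strand, at 224. Mrpl17 differed by -0.17 log2 after BMP-2 and by -0.16 between replicates, Mrpl22 by -0.13 and -0.16, Mrpl32 by -0.042 and -0.32, and Mrps18b by -0.041 and 0.019. Windows were printed only for genes already chosen for naming. Mrpl10 and Mrpl9 also hold the NRF1 motif, and they differed by -0.089 and -0.0018 and by -0.034 and -0.17. A link between motif and difference was not tested.

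Members often face another gene. Within 1000 bases, 23 of the 67 matched members (34.3%) start head to head with a protein-coding gene on the opposite strand, against 8.47% of protein-coding genes. The starts are 32 to 935 bases apart. In 1 case both partners are members, Mrps11 in the small and Mrpl46 in the large subunit, whose starts are 42 bases apart. The bases between them, at chr7:78783090-78783130 on the strand of Mrps11, hold none of the motifs searched.
Mrps11 to Mrpl46: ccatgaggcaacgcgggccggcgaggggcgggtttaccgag

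Mrps11 differed by -0.10 after BMP-2 and -0.13 between replicates, and Mrpl46 by -0.043 and -0.11. Both lay lower on replicate 2 without overlap. Mrpl32 starts 205 bases from Psma2, a proteasome subunit gene, and they differed between replicates by -0.32 and -0.16. Mrpl47 starts 308 bases from Ndufb5, a subunit of respiratory complex I, with -0.25 and -0.086. Of the 22 partners with a tested probe set, 13 were lower on replicate 2, and of the members of those pairs 18. The shares were 39.8% of all tested probe sets and 66.6% of the brightest quintile. Both sides were lower for 9 of the members, with Mrps11 and Mrpl46 counted from each side. Mrpl40 and Hira lay apart between replicates, at -0.16 and 0.23, and so did Mrps18c and Helq, at -0.10 and 0.16. A link within pairs was not tested. Mrps12 starts 147 bases from Sars2, the mitochondrial seryl-tRNA synthetase gene, and the pair lay apart after BMP-2, at -0.16 and 0.39. Sars2 gave 1090.2 and 1103 with BMP-2 and 695 and 1010.0 untreated, and its adjusted p was 1.00 in limma.

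Other genes of mitochondrial translation were taken from lists by function. With BMP-2 none of their tested genes had an adjusted p under 0.05 in limma. An unadjusted p under 0.05 was given by Mettl17, 1 of 23 genes of ribosome assembly and rRNA modification, and by Sars2, 1 of 21 synthetase genes. The other lists had 0 such genes, and the share over all tested probe sets was 3.07%. Of 4 ribosomal proteins with other names, 3 were lower and 1 higher, with a median of -0.070: Dap3, a GTP-binding small subunit protein, differed by -0.11, Gadd45gip1 of the large subunit by -0.093 and Ptcd3 of the small subunit by 0.071. Of 13 translation factors, 6 were lower and 7 higher (median 0.045), with the elongation factors Tufm at 0.084 and Gfm1 at 0.068 and the GTPase Guf1 at -0.26. Of 23 genes of ribosome assembly and rRNA modification, 15 were lower and 8 higher (median -0.029).

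In that last list Mettl17, a factor of small subunit assembly, gave 696 and 615 with BMP-2 and 785 and 825 untreated, a difference of -0.30 ± 0.12 with an unadjusted p of 0.0359 and an adjusted p of 1.00 in limma. The treated arrays lay below the untreated ones. Rbfa, which matures the small subunit rRNA, differed by 0.20 and Tfb1m, which methylates it, by -0.18. Of 18 genes of mitochondrial transcription and RNA maintenance, 8 were lower and 10 higher (median 0.022), with Gabpb1, a subunit of GABP, at 0.19, Mterf1a at 0.21 and Hsd17b10, a subunit of mitochondrial RNase P, at -0.10. Of 21 genes of the aminoacyl-tRNA synthetase list, 13 were lower and 8 higher (median -0.020), with Fars2 at -0.29 and Rars2 at 0.16.

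Between replicates no test among the lists was made. The medians, replicate 2 minus replicate 1, were -0.003 for the ribosomal proteins with other names, -0.043 for translation factors, -0.039 for assembly, -0.051 for transcription and RNA maintenance and 0.061 for the synthetases, of which 15 were higher and 6 lower. The members stood at -0.089. The lists differ in signal, with median log2 signals of 11.4 for the members and 8.87 for the synthetases, and the part of signal in these differences was not tested.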

How the data were processed

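Gene expression was measured on 4 one-colour Affymetrix arrays, 2 per group, grouped by their titles. Each deposited value is an intensity on a linear scale, 1 per probe set. The submitters' processing notes name MAS5 as the tool, whose version is not given in the sources used here, and a 2%-trimmed mean of 500 on each array was read as scaling within arrays. Low MAS5 signals are noisy on a log scale. Detection calls were not used here.

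Differences are in log2 units, no pseudocount being added. Leaving out 64 controls, 27022 of 45101 probe sets were tested, those with a mean log2 signal above the 40th percentile (a signal of 53.0). Groups were compared in R 4.3.3 by limma 3.58.1 (lmFit, then eBayes with an intensity trend), two-sided, with no block and with Benjamini-Hochberg adjustment over all tested probe sets, and replicate numbers likewise. The fits had 2 residual and 7.98 (treatment) or 5.89 (replicate) prior degrees of freedom, and the code was tested on simulated data. With 2 arrays per group, a permutation cannot pass 0.05 and was not run. Genes come from the platform annotation, in which updating symbols through Entrez identifiers changed 0 members.

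Members and lists were chosen with earlier results of these data known. Members named are the 4 with the smallest p per direction, contrast and name group, the 3 brightest and dimmest Mrpl and Mrps genes, those whose tested probe sets differ by over 0.58 log2, the Mrps18 paralogs, Mrps30 and Mrps36, and from each other list the 3 genes with the smallest p. Mrpl9, Mrpl10, Mrpl16, Mrpl19, Mrpl40, Mrpl46, Mrps11 and the partners of members were named after their values were seen. The alternatives tried were median centring, quantile normalization, a pseudocount of 25.4, other filters, no trend, averaged probe sets, a replicate or treatment term and leaving out each array.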

Additional observations from a re-analysis of the deposited data

How the results depend on the processing

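With BMP-2, 0 members had an adjusted p under 0.05 in any of the 14 alternatives, centring on the tested median and on the brightest quintile having been added after seeing the data. The median difference was -0.031 with quantile normalization, -0.032 with median centring, -0.029 with averaged probe sets and -0.066 with centring on the tested median. It ranged from -0.076 to 0.013 when 1 array was left out, with 33 to 63 genes lower. In these fits 43.3% to 63.2% of the brightest quintile were lower. They assume that the lone array of a group varies like the others. Leaving out 1 array gave a range that crosses 0 for Mrpl15 (-0.031 to 0.14), Mrpl35 (-0.036 to 0.22), Mrpl49 (-0.0017 to 0.15), Mrps36 (-0.024 to 0.17), Mrps5 (-0.057 to 0.12) and Mrps9 (-0.044 to 0.11). It gave -0.46 to -0.026 for Mrpl48, -0.35 to -0.049 for Mrpl33, -0.26 to -0.030 for Mrps30 and -0.20 to -0.046 for Mrpl22. Averaged probe sets turned Mrpl17 (0.32), Mrpl33 (0.20) and Mrps2 (-0.031), and centring on the tested median turned Mrps5 (-0.00049). Over all tested probe sets, the calls with BMP-2 numbered 5 as reported, 116 with median centring, 17 with centring on the tested median, 0 without the intensity trend and 16 to 141 when 1 array was left out.

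Between replicates the median was -0.057 with quantile normalization, -0.058 with centring on the brightest quintile, -0.18 on the tested median, -0.29 on the array median and -0.054 with averaged probe sets, and -0.11 to -0.062 when 1 array was left out. Array-median centring, with 43 members past the threshold in limma and 0 in the other alternatives, left 1 member above 0 (15 as deposited) and, among the genes chosen for naming in this contrast, turned Mrpl1 (-0.11), Mrpl33 (-0.025), Mrpl37 (-0.13), Mrps18b (-0.19), Mrps2 (-0.17), Mrps21 (-0.18) and Mrps30 (-0.14). Centring on the tested median left 3 above 0 and, among the same choice, turned Mrpl37 (-0.014), Mrps18b (-0.070), Mrps2 (-0.056), Mrps21 (-0.064) and Mrps30 (-0.024), averaged probe sets turned Mrpl1 (-0.0044) and brought Mrpl47 to -0.013 and Mrps25 to -0.012, and leaving out 1 array gave -0.010 to 0.047 for Mrps18b, -0.013 to 0.079 for Mrps2, -0.024 to 0.073 for Mrps21 and -0.094 to 0.22 for Mrps30. Under array-median centring 96.6% of the brightest quintile of tested probe sets were lower, and under centring on the tested median 87.3%. Centring subtracts 1 number per array, so it shifts all genes alike. Other causes were not tested. With all probe sets of a gene averaged, also those below the signal limit, the untreated median was 1338 (Mrpl) and 1584 (Mrps), which reverses their order. It was 2872 to 3069 (Mrpl) and 2331 to 2393 (Mrps) with either untreated array alone, and 2437 for Mrps genes placed by structure.

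Equal replicate numbers are only numbers in the labels, and their deviations from the group means had a Pearson r of 0.15 over the tested probe sets. With the replicate block, 0 members and 11 probe sets passed, the median stayed at -0.035, and the smallest adjusted p of a member in limma was 0.841.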

Other observations

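Probe sets that name a member together with another gene were left out of every count. One for Mrpl30 and the predicted gene Gm6238 gave 5548 and 5662 with BMP-2 and 6222 and 5580.3 untreated. One for Mrpl53 and Ccdc142 gave 1784 and 1572 against 1881 and 1832, and one for Mrps34 and Nme3 gave 881 and 855 against 967 and 1018. The latter pair were lower with BMP-2 without overlap, at -0.15 and -0.19 log2, and the probe set for Mrps34 alone was at 0.029.

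Below the signal limit lay 11 probe sets of members. One of Mrpl19, a homologue of a bacterial protein at the interface of the subunits, gave 2.80 and 3.73 with BMP-2 and 17.8 and 17.8 untreated, while the brightest probe set of that gene gave 3081 and 2979.6 against 3159 and 3005.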
